A study of Rattus norvegicus with 23 samples.

Results

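Semaglutide added to PYY3-36 was compared with PYY3-36 alone in the femur of female Wistar rats by RNA sequencing, gene by gene across the autosomes. The members are 5 combination libraries (A248, A251, A253, A318 and A320) and 4 PYY libraries (A215, A216, A219 and A220), chosen by their labels, so that 9 of the 23 libraries of the study enter the comparison. Of 30562 genes in the count table, 29031 lie on autosomes, and 14695 of these had enough counts to be tested. Per the labels and the design text, all 9 libraries come from the MetOP model, a high-fat diet combined with L-NAME, which blocks nitric oxide synthases. The PYY group also received saline and the combination group received semaglutide. The sample titles further carry the codes lfd and LN, which are not explained there. Age, dose and duration were not stated in those sources. The treatment field of the PYY libraries reads PYY3-36, PYY3-37, PYY3-38 and PYY3-39 in turn, while their titles name 1 treatment. They were kept as 1 group. The other libraries are 5 from MetOP rats given saline, 5 from MetOP rats given semaglutide and 4 from healthy controls on standard diet. Nothing in the labels says that each library is a separate animal, so the p-values measure the spread between libraries.

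Semaglutide mimics the incretin hormone GLP-1 and acts for days at its receptor. PYY3-36, secreted by the gut after meals, signals chiefly through the Y2 receptor of the neuropeptide Y family. Both lower food intake. Bone is built by osteoblasts, resorbed by osteoclasts and maintained by osteocytes, and a whole femur also holds cartilage, marrow, vessels, periosteum and attached muscle and tendon. In such a bulk sample, fewer cells of a type and less RNA per cell cannot be told apart.

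The 9 libraries held 19.25 to 40.65 M (mega) counts each. Mitochondrially encoded genes took 46.1% (A251) to 82.6% (A253) of all counts, with 63.6% ± 7.82 (SD, n = 4) in PYY and 67.0% ± 13.5 (SD, n = 5) in the combination. Skeletal muscle genes took 1.22% (A320) to 24.1% (A251) of the other counts, and haemoglobin genes 0.309% (A251) to 10.8% (A320). None of 4 such shares differed by the exact two-sided permutation test (unadjusted p = 0.317 to 0.762, adjusted p = 0.762 each, smallest p possible 0.0159). Correlations of log2 CPM between libraries were 0.659 to 0.920 within groups (median 0.844, 16 pairs) and 0.711 to 0.911 between groups (median 0.837, 20 pairs). The most similar pair within a group, A248 and A318, still differed by 62.0 times the sampling noise (chi-square per degree of freedom). All 9 were counted separately. This measure cannot show that they are separate animals, since repeat preparations from 1 animal can also differ by more than sampling noise. The osteoblast markers Col1a1, Bglap, Ibsp, Sp7 and Alpl and the osteoclast markers Acp5 and Ctsk were detected in all 9 libraries. The lowest level of each of these genes was in either A251 or A220. Calcr, another marker fixed for osteoclasts, was not detected in A215, A318 and A320, and was higher on average in the combination.

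Some libraries labelled female held counts of genes on the Y chromosome. Eif2s3y, Ddx3, Kdm5d and Uty together had 1623 counts in A248 and 638 in A318, both from the combination group, with 87 in A251, 24 in A320 and 0 in A253. All 4 PYY libraries, all 5 saline and all 5 semaglutide libraries were at 0. A248 and A318 therefore go against their sex label. The counts of genes over all autosomes and some of the list medians are also given without them. Without them the fatty acid oxidation median turned from 0.123 to −0.241 and that of lipid and cholesterol synthesis from −0.216 to 0.0409. The macrophage median turned from −0.147 to 0.104 and the plasma cell median from −0.169 to 0.188. The other list medians kept their sign. The part of the Y-linked signal in any other difference was not tested beyond that.

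No autosomal gene passed an adjusted p of 0.05 (0 of 14695, 0%; edgeR quasi-likelihood test with Benjamini-Hochberg adjustment), and the smallest adjusted p was 0.597. Every difference below is thus a measured value that did not pass the test. At an unadjusted p under 0.05, 617 genes were lower in the combination (4.2% of those tested) and 305 were higher (2.08%), 922 in all where 735 would be expected by chance. This excess depended on the libraries fitted. With the 9 libraries fitted alone, 2.83% were lower and 0.982% higher, together below the fraction of 0.05 that chance gives. The total was also below it without A215 (2.87% and 0.894%), without A216 (3.12% and 1.3%) and without both (1.6% and 0.491%). In all other alternative analyses the total stayed above that fraction. Lower genes made up 66.9% of the 922. Without A220 they made up 50.5%, with 938 lower and 918 higher, and without A320 50.4%, with 866 lower and 853 higher, so that both counts rose and the higher one rose more. All 5 combination libraries lay below all 4 PYY libraries for 154 genes (1.05%) and above them for 76 (0.517%). With 126 arrangements of 5 and 4 libraries, random labels would separate a fraction of 0.0159 of genes, both directions together. The 2 shares together do not exceed that, so groups that do not overlap are no more common here than by chance. Without A248 and A318, 0 genes passed, and 482 were lower and 295 higher at the unadjusted threshold. With all libraries, DESeq2 called 9 genes (8 lower and 1 higher) and limma voom called 1. The median log2 fold change over all tested autosomal genes was 0.024, and 52% of them were higher in the combination, whatever their p. The spread between libraries of a group was wide, with a median biological coefficient of variation of 52.4%.

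The genes of smallest p among the lower ones encode proteins of the basement membrane, of elastic microfibrils and of the surfaces that bind them. Values are CPM (counts scaled to library size by TMM), given in the order A215, A216, A219 and A220 for PYY and A248, A251, A253, A318 and A320 for the combination, and log2 fold changes are the combination minus PYY with their standard error. Col15a1, a collagen of the basement membrane zone, measured 84.2, 39.8, 60.1 and 9.55 CPM in PYY and 11.9, 11.5, 17.7, 11.3 and 5.81 CPM in the combination (log2 fold change −2.05 ± 0.44, SE; edgeR adjusted p = 0.597; DESeq2 adjusted p = 0.0166). Of the PYY libraries only A220 lay within the range of the combination, and without A220 the edgeR adjusted p was 0.0185. Lamb1, the laminin beta 1 chain of basement membranes, measured 25.1, 13.04, 12.5 and 7.47 CPM in PYY and 6.02, 3.996, 4.72, 5.34 and 5.94 CPM in the combination (−1.48 ± 0.32; DESeq2 adjusted p = 0.0211). Its groups did not overlap. Itga6, an integrin subunit that binds laminin, measured 33.5, 29.7, 34.5 and 18.5 CPM against 12.8, 11.7, 16.9, 10.5 and 20.9 CPM (−0.99 ± 0.23), with A320 above A220.

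Fbn1, the main protein of elastic microfibrils, measured 225.8, 31.0, 48.2 and 9.13 CPM in PYY and 6.74, 7.39, 16.4, 16.3 and 17.9 CPM in the combination (−2.60 ± 0.58; DESeq2 adjusted p = 0.0166). The A215 value was far above the others, and without A215 the log2 fold change was −1.25. Without A220 it was −2.97, with an edgeR adjusted p of 0.0322. Ltbp2, a microfibril-associated protein of the latent TGF-beta binding family, measured 27.8, 18.4, 4.11 and 2.40 CPM in PYY and 2.53, 0.537, 1.59, 2.38 and 0.785 CPM in the combination (−3.08 ± 0.72; DESeq2 adjusted p = 0.0182). Abi3bp, an extracellular matrix protein, measured 179, 9.34, 35.6 and 4.26 CPM against 6.17, 7.32, 7.01, 4.80 and 2.01 CPM (−3.38 ± 0.74; DESeq2 adjusted p = 0.00457), and −1.65 without A215. In both of these genes the overlap came from A220.

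Slco2a1, the prostaglandin transporter, measured 2.79, 4.18, 7.09 and 1.84 CPM in PYY against 0.621, 0.840, 0.852, 1.33 and 0.723 CPM in the combination (−2.18 ± 0.54; DESeq2 adjusted p = 0.0166). Its groups did not overlap. Il1r1, the signalling receptor of interleukin-1 (−1.68 ± 0.41), and Ptgfrn, a partner of tetraspanins (−1.44 ± 0.34), were also among the 10 of smallest p, each overlapping in 1 PYY library, A220. The other genes that DESeq2 called, named after their values were seen, were Lgi3, with 49, 16, 37 and 23 counts in PYY and 1 count in A251 alone of the combination, LOC691422, with 47 to 107 counts in PYY and 13 or fewer in the combination, and RGD1564606, the only one higher. Limma voom called LOC691422 alone.

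**Figure D1:**
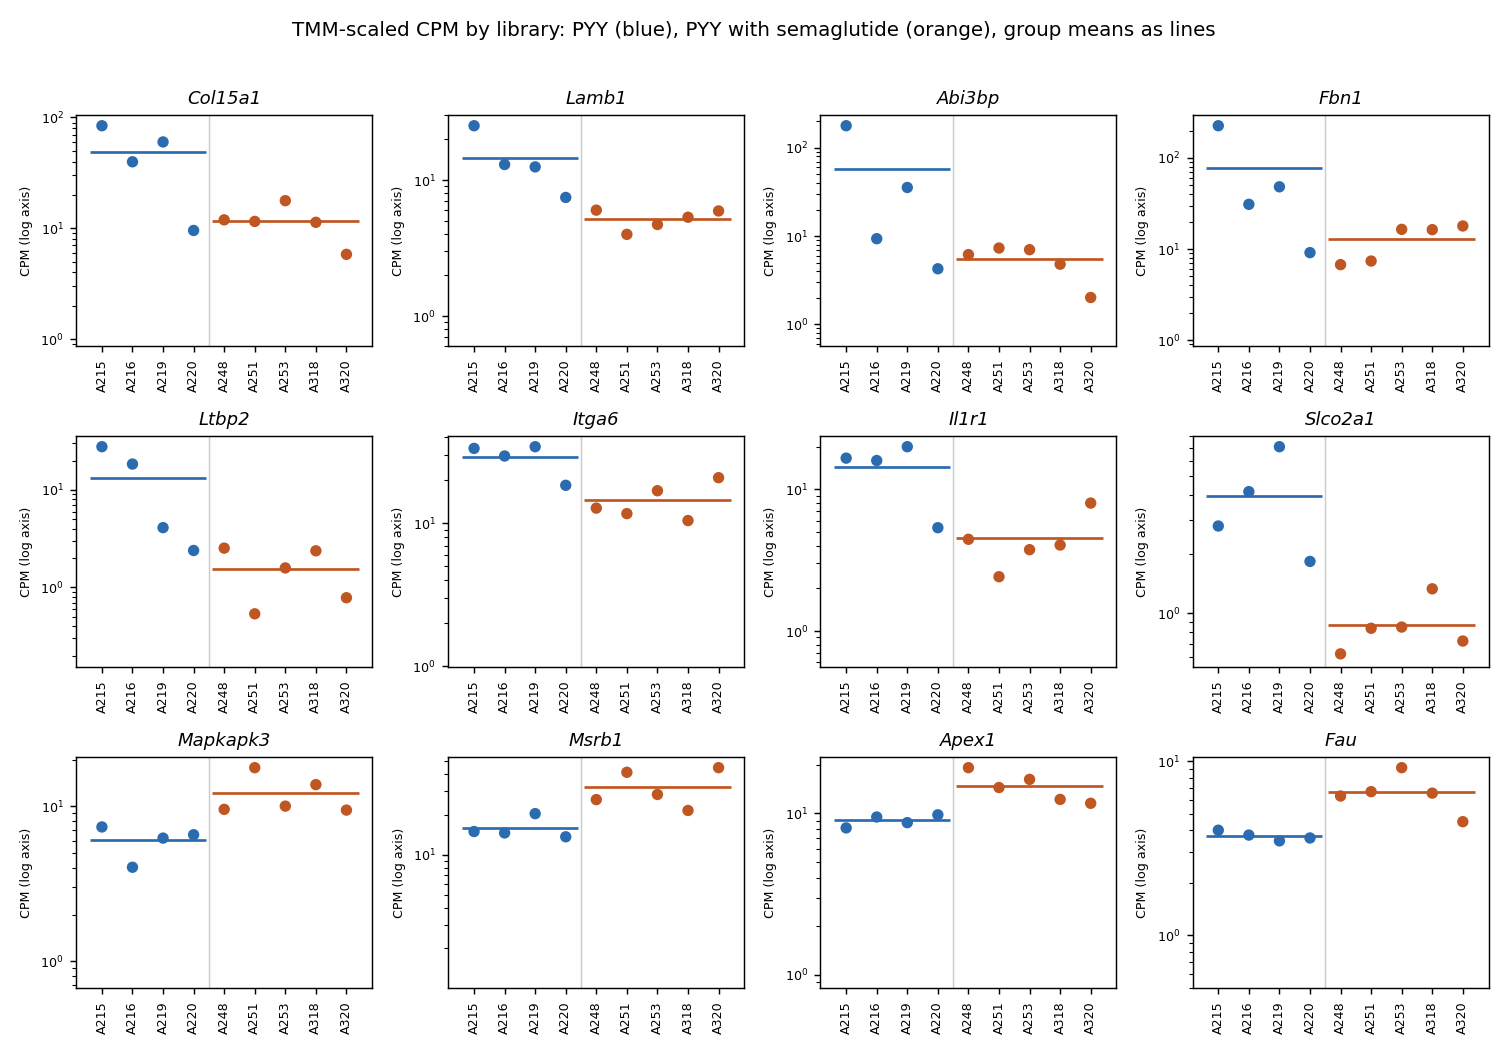
TMM-scaled CPM (log axis) of 12 genes of small p in each of the 9 libraries, with PYY in blue, PYY with semaglutide in orange and the group means as lines. A220 is the lowest PYY library for each of the 8 lower genes, and the 4 higher genes Mapkapk3, Msrb1, Apex1 and Fau do not overlap between groups. Higher genes of small p that overlapped are not shown.

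Of the 10 higher genes of smallest p, 9 had log2 fold changes from 0.70 to 1.12. Mapkapk3, a kinase downstream of p38, measured 7.36, 4.04, 6.24 and 6.56 CPM in PYY and 9.56, 17.8, 10.03, 13.8 and 9.46 CPM in the combination (1.00 ± 0.26; edgeR adjusted p = 0.658). Msrb1, a selenoprotein that reduces oxidised methionine, measured 14.9, 14.6, 20.3 and 13.6 CPM against 25.9, 41.4, 28.3, 21.4 and 44.8 CPM (1.03 ± 0.28). Apex1, a base excision repair nuclease, measured 8.12, 9.48, 8.75 and 9.78 CPM against 19.2, 14.4, 16.2, 12.2 and 11.5 CPM (0.70 ± 0.20). None of these 3 overlapped between groups. An entry annotated as Fau, the symbol of a ribosomal protein fused to a ubiquitin-like one (0.83 ± 0.25), and Npb, which encodes neuropeptide B (0.82 ± 0.23), did not overlap either. Apart from Cyp4f18 below, the rest of the 10 overlapped between groups. Over all tested autosomal genes 0.517% did not overlap in this direction. Since the 10 were picked for small p, their lack of overlap is no separate result. The Fau entry is short (chr6:83228767-83229272) and its level was low, with means of 3.72 CPM in PYY and 6.64 CPM in the combination. Whether it is the parent gene or a copy of it was not tested. The remaining one of the 10, Cyp4f18, a cytochrome P450 of the 4F family, measured 0.436, 0.662, 0.709 and 0.396 CPM in PYY and 1.58, 2.52, 0.851, 3.05 and 14.5 CPM in the combination (3.02 ± 0.90; edgeR adjusted p = 0.658). Its groups did not overlap, A320 was far above the other libraries, and without A320 the log2 fold change was 1.85. Ribosomal proteins as a list were 26 of 27 higher, with a median log2 fold change of 0.258 against 0.024 over all autosomal genes, and this median stayed above 0 in all 21 alternative analyses. Within the list Rpl11 measured 112, 117, 108 and 114 CPM in PYY and 158, 132, 180, 139 and 120 CPM in the combination (0.37 ± 0.20). A253 held the highest level of 25 of the 27 ribosomal protein genes.

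The promoters of Lamb1 and Mapkapk3 are shown because these genes had the smallest p in each direction among the named genes whose groups did not overlap. They are from RefSeq on build GRCr8, 250 bases before to 50 after the start, 5′ to 3′ on the gene's strand, at chr6:53562846-53563145 (plus strand) and chr8:116842179-116842478 (minus strand). Capitals mark GC boxes.
Lamb1: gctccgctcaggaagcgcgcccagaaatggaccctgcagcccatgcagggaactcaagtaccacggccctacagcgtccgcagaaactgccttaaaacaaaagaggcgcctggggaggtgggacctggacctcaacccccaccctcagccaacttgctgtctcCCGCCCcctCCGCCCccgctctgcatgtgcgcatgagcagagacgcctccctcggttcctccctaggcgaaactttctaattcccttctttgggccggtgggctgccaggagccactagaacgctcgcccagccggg
Mapkapk3: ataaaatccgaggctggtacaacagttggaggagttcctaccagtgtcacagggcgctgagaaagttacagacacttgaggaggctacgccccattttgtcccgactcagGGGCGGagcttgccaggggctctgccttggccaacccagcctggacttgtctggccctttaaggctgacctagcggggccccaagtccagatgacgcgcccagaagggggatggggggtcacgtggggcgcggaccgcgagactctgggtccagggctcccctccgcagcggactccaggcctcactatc
The GC box GGGCGG was searched on both strands, as were the TATA box TATAAA, the CCAAT box, the AP-1 site TGANTCA and the cAMP response element TGACGTCA. Lamb1 held 2 GC boxes and Mapkapk3 held 1, and neither window held any of the other motifs. Of 33469 promoters of the same length, 33.1% held a GC box, 14.2% a TATA box, 37.5% CCAAT, 7.33% the AP-1 site and 1.83% the cAMP response element. In the files, which use build mRatBN7.2 per the submitters' processing notes, the Lamb1 gene spans chr6:47835525-47902585 and the Mapkapk3 gene chr8:107929762-107963568.

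Genes of fibroblasts, tendon and vessel walls were mostly lower in the combination. Of 20 tested fibroblast and adventitia genes, 18 were lower, 14 of them at an unadjusted p under 0.05 (background 4.2%), and the median log2 fold change was −1.66. The highest level of 15 of these 20 genes was in A215. The median was −0.848 without A215 and −0.301 without both A215 and A216, and it stayed below 0 in all 21 alternatives. Col6a1, a chain of the microfibrillar collagen VI, measured 298, 247, 100 and 18.7 CPM in PYY and 41.2, 15.4, 52.6, 34.8 and 53.9 CPM in the combination (−2.07 ± 0.56). Col6a3, another chain of it, had a log2 fold change of −2.21 ± 0.59, and Col3a1, a fibrillar collagen of soft connective tissue, of −2.38 ± 0.69. In each of these 3 genes A215, A216 and A219 lay above all 5 combination libraries and A220 lay among or near the lowest of them.

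Of 11 tested tendon and periosteum genes, 10 were lower and 6 had an unadjusted p under 0.05 (background 4.2%), with a median of −1.77 that was −0.427 without A215. A215 held the highest level of 10 of the 11. Aspn, a small proteoglycan of tendon and periodontal ligament, measured 214, 34.7, 32.3 and 8.02 CPM in PYY and 10.7, 3.996, 37.0, 8.93 and 12.03 CPM in the combination (−2.31 ± 0.66), and Cilp, a matrix protein of cartilage and tendon, had a log2 fold change of −2.10 ± 0.60 that was −0.57 without A215. For Cilp, A215 measured 103 CPM, the other PYY libraries lay between 6.97 and 16.3 CPM and the combination libraries between 3.86 and 12.9 CPM.

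Endothelial genes were lower by a smaller amount and with less dependence on 1 library. Of 19 tested, 17 were lower and 10 had an unadjusted p under 0.05 (background 4.2%), with a median of −0.795 that ranged from −0.983 to −0.621 when each library was left out in turn and was −0.766 without A248 and A318. A219 held the highest level of 16 of the 19. Eng, a TGF-beta co-receptor of endothelium, measured 40.3, 35.0, 43.9 and 13.9 CPM in PYY and 16.4, 13.5, 14.3, 20.4 and 19.1 CPM in the combination (−0.99 ± 0.31). Emcn, a sialomucin of venous and sinusoidal endothelium, measured 29.97, 27.5, 40.5 and 13.2 CPM against 18.2, 12.4, 11.3, 17.5 and 12.8 CPM (−0.94 ± 0.33). Cdh5, the endothelial cadherin, had a log2 fold change of −0.87 ± 0.32. In all 3 the PYY library A220 fell within the combination's range and the other PYY libraries lay above it. Cav1, the scaffold of caveolae, which binds endothelial nitric oxide synthase, measured 218, 105, 214 and 90.7 CPM against 74.0, 58.8, 61.2, 93.4 and 117 CPM (−0.96 ± 0.30). It led the list of nitric oxide and vascular tone, of which 19 of 21 genes were lower with a median of −0.624, and 1 had an unadjusted p under 0.05, about the background of 4.2%. Among smooth muscle and pericyte genes 10 of 12 were lower (median −0.457, which was −0.0107 without A219 and −0.784 without A320), with Rgs5, a pericyte marker, at 148, 141, 102 and 43.4 CPM in PYY and 21.8, 7.42, 5.61, 71.9 and 109 CPM in the combination (−1.33 ± 0.62).

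Growth factor lists followed the same direction. In BMP and TGF-beta signalling 24 of 27 genes were lower (median −0.563, −0.706 to −0.492 on leaving out each library), led by Ltbp2 and by Ltbp4, another latent TGF-beta binding protein (−1.07 ± 0.36). In Wnt signalling 21 of 27 were lower (median −0.427). Wif1, a secreted Wnt inhibitor, measured 21.3, 15.7, 7.60 and 0.772 CPM in PYY and 3.78, 1.04, 3.33, 2.25 and 1.54 CPM in the combination (−2.25 ± 0.76). In the IGF axis 13 of 18 were lower (median −0.463). Pappa, the protease that frees IGF from its binding proteins, had 11, 21, 13 and 9 counts in PYY and 0 in each of the 5 combination libraries, at least 17.8-fold lower against a floor of 3 counts over that group. Igf2r, the receptor that clears IGF2, was lower (−0.65 ± 0.22) and Igf2 itself higher (0.63 ± 0.28), and neither passed the test.

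Bone genes were lower on average, but this rested largely on 1 PYY library. Of 27 tested osteoblast genes 25 were lower, 11 with an unadjusted p under 0.05 (background 4.2%), and the median log2 fold change was −1.56. A216 held the highest level of 18 of the 27. The median was −0.362 without A216 and 0.00733 without A215 and A216, libraries that were singled out after their levels were seen. Col1a1, the main collagen of bone, measured 1733, 2962, 610.3 and 62.1 CPM in PYY and 433.8, 56.8, 614.4, 186.1 and 236.5 CPM in the combination (−2.13 ± 0.87). The PYY libraries alone spanned 62.1 to 2962 CPM, wider than the combination, and A251 was the only library below A220. Ibsp, bone sialoprotein, measured 72.0, 478, 34.3 and 17.0 CPM against 70.6, 6.95, 36.5, 13.9 and 33.5 CPM (−2.22 ± 0.83, and −0.35 without A216). Mmp13, a collagenase of osteoblasts and hypertrophic cartilage, had a log2 fold change of −2.45 ± 0.90 that was −0.73 without A216, and Spp1, osteopontin, of −2.03 ± 0.85 that was −0.56. Sp7 (−1.23 ± 0.78) and Runx2 (−0.87 ± 0.69), the transcription factors of osteoblast differentiation, turned to 0.12 and 0.13 without A216. Bglap, osteocalcin, had a log2 fold change of −0.66 ± 0.66, with 74.3 CPM in both A215 and A253. Among 11 osteocyte genes 9 were lower with a median of −0.404, and none had an unadjusted p under 0.05. That median was −0.0304 without A215 and 0.562 without A215 and A216. Dmp1, an osteocyte matrix protein, measured 19.2, 31.97, 9.67 and 10.3 CPM against 17.5, 2.25, 15.1, 20.1 and 33.9 CPM, the groups overlapping throughout.

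Osteoclast genes gave the same picture. Of 20 tested 17 were lower, 5 with an unadjusted p under 0.05 (background 4.2%), with a median of −0.847 that was 0.121 without A216, which held the highest level of 18 of them. Ctsk, the collagen-degrading protease of osteoclasts, measured 151, 521, 64.3 and 14.4 CPM in PYY and 78.4, 7.52, 62.1, 28.7 and 31.3 CPM in the combination (−2.18 ± 0.82, and −0.88 without A216). Acp5, tartrate-resistant acid phosphatase, had a log2 fold change of −1.94 ± 0.86 that was −0.64 without A216. Nfatc1, the master transcription factor of osteoclasts, measured 11.5, 15.4, 10.3 and 11.2 CPM against 5.93, 10.3, 9.56, 8.30 and 7.29 CPM (−0.55 ± 0.24), and was the 1 osteoclast gene whose groups did not overlap (background 1.05%). Cartilage genes were lower in 17 of 17, each highest in A216. Col2a1, the collagen of hyaline cartilage, measured 1.69, 3868, 80.2 and 6.93 CPM in PYY and 300, 18.1, 249, 2.59 and 0.911 CPM in the combination (−3.12 ± 2.19), and the list's median of −2.97 was 1.45 without A216.

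**Figure D2:**
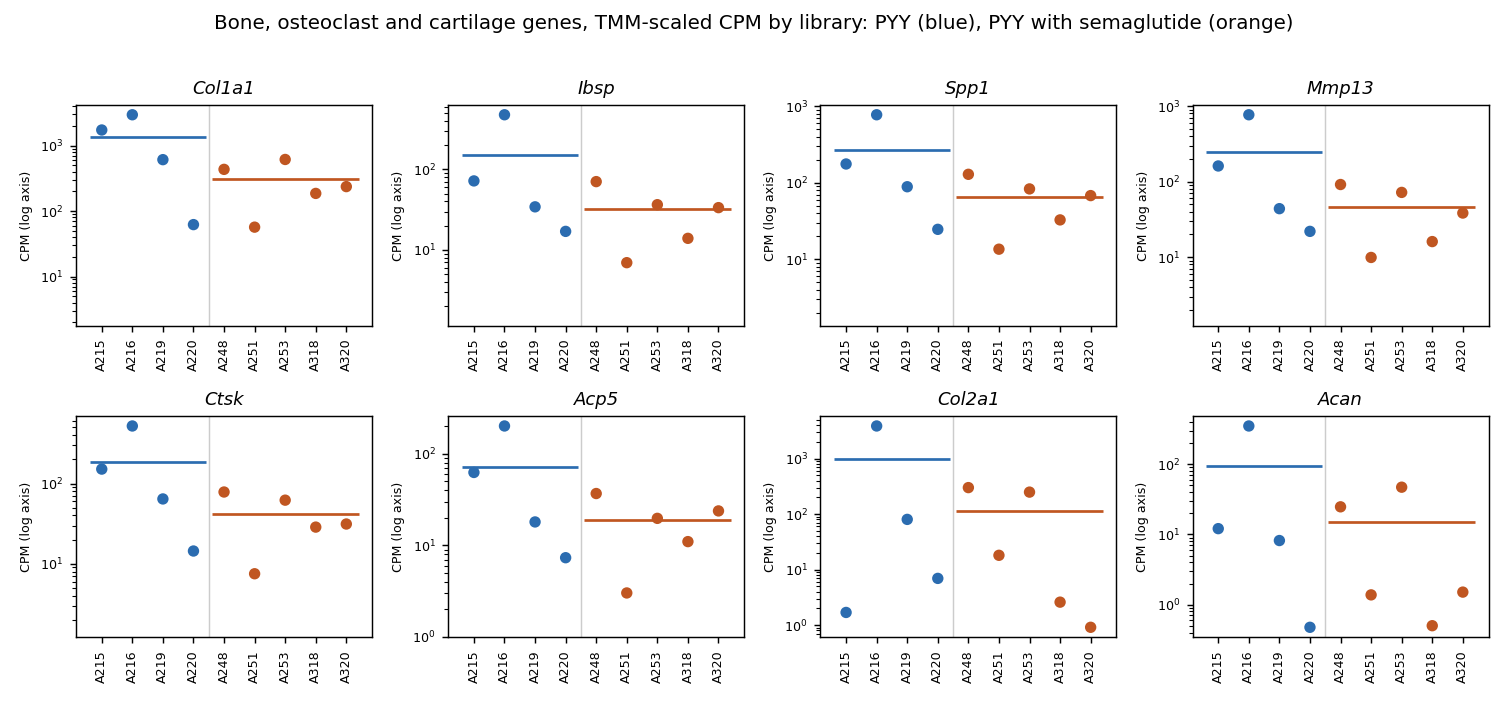
TMM-scaled CPM (log axis) of 4 osteoblast, 2 osteoclast and 2 cartilage genes in each library, PYY in blue and PYY with semaglutide in orange, with group means as lines. A216 is the highest library for every gene shown, and A251 or A220 the lowest for the bone and osteoclast genes.

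The neutrophil, megakaryocyte and erythroid lists of the marrow went the other way. The marrow stroma (−0.223), macrophage (−0.147) and plasma cell (−0.169) medians did not. Of 18 tested neutrophil genes 17 were higher, 7 with an unadjusted p under 0.05 (background 2.08%), with a median of 1.68. A320 held the highest level of 13 of them, and the median was 0.767 without A320 and 2.12 without A248 and A318. Camp, an antimicrobial peptide of neutrophil granules, measured 1.54, 13.5, 6.68 and 8.20 CPM in PYY and 6.69, 2.02, 33.6, 25.8 and 159 CPM in the combination (2.60 ± 0.97). S100a8, a calcium-binding protein of neutrophils, measured 66.9, 311, 266 and 112 CPM against 158, 28.2, 505, 328 and 1230 CPM (1.25 ± 0.78). In both genes A253, A318 and A320 lay above all PYY libraries and A251 below all but 1 of them or below all. Of 14 megakaryocyte genes 12 were higher (median 1.32, 0.552 without A320 and 1.80 without A248 and A318). All 18 erythroid genes were higher, with a median of 0.514 and none at an unadjusted p under 0.05. That median was 0.0632 without A320, 0.901 without A248 and A318, and −0.0315 with the mitochondrial percentage as a covariate. The mean erythroid list level in log2 CPM was 5.672 ± 0.877 (SD, n = 4) in PYY and 5.833 ± 1.39 (SD, n = 5) in the combination. Hba-a1, an alpha globin, measured 2333, 5007, 13510 and 2735 CPM in PYY and 4003, 781.3, 11360, 5083 and 14580 CPM in the combination (0.28 ± 0.79).

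Of 36 cell cycle genes 33 were higher, 2 with an unadjusted p under 0.05 (background 2.08%), with a median of 0.420 that was −0.00702 without A320 and 0.759 without A248 and A318. The mean list level in log2 CPM hardly differed, at 2.575 ± 0.85 (SD, n = 4) in PYY and 2.556 ± 1.51 (SD, n = 5) in the combination. It ran from 0.355 in A251 to 4.086 in A320. Rrm1, a subunit of ribonucleotide reductase, measured 16.6, 23.9, 27.0 and 19.7 CPM in PYY and 25.4, 20.6, 50.7, 26.9 and 57.1 CPM in the combination (0.73 ± 0.32). Mki67, a proliferation marker, had a log2 fold change of 0.64 ± 0.81, with 5.21 CPM in A251 and 183 CPM in A320. The B cell, T and NK cell, plasma cell, macrophage and MHC class II lists had medians between −0.169 and 0.248, each of which changed sign when 1 library was left out. The T and NK cell median ran from −1.96 without A320 to 1.36 without A216 and was 0.906 without A248 and A318, and A320 held the highest level of all 9 tested T and NK cell genes.

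**Figure D3:**
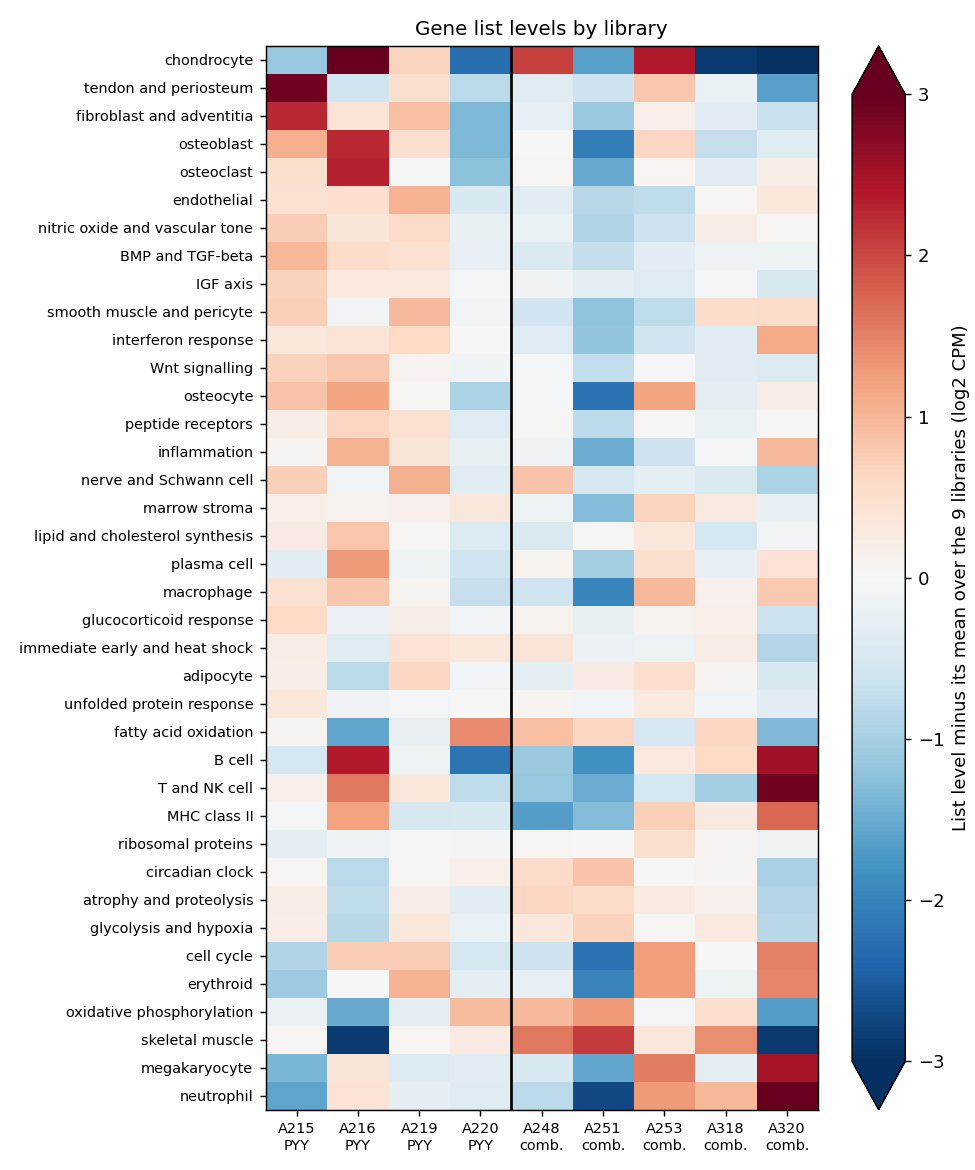
Mean log2 CPM of each gene list in each library, as its difference from the list's mean over the 9 libraries, with the PYY libraries left of the line. Connective tissue and tendon are highest in A215, osteoblast, osteoclast and cartilage genes in A216, muscle in A251 and neutrophil genes in A320.

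Muscle and mitochondrial genes were higher on average with wide spread. Of 24 skeletal muscle genes 23 were higher (median 0.771, and 0.523 without A248 and A318) and none had an unadjusted p under 0.05. Ckm, muscle creatine kinase, measured 1309, 410, 2566 and 1820 CPM in PYY and 3505, 7368, 1701, 3853 and 155 CPM in the combination (1.12 ± 0.73). A320, in the combination, and A216, in PYY, were both far below the other libraries. All 37 tested oxidative phosphorylation genes encoded in the nucleus were higher (median 0.537), with Cox5a, a subunit of cytochrome oxidase, at 0.79 ± 0.45. With the muscle level as a covariate the median was −0.566 for muscle genes and −0.235 for oxidative phosphorylation, and without A248, A251 and A318 these medians were −1.01 and −0.673. That covariate is the mean log2 CPM of the same muscle genes, which removes their shared difference by construction. The fit with it thus cannot say whether muscle genes differed. Connective tissue medians moved less under the muscle covariate, to −1.47 for fibroblast and −0.709 for endothelial genes, while the osteoblast median became −0.272.

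The remaining lists had smaller medians, some of which moved far with single libraries. Adipocyte genes had a median of −0.0155, marrow stroma −0.223, the unfolded protein response −0.00595, immediate early and heat shock genes −0.110, glucocorticoid response −0.123, lipid and cholesterol synthesis −0.216, nerve and Schwann cell −0.233 and fatty acid oxidation 0.123. The nerve and Schwann cell median was −0.884 without A248 and −1.55 without A248 and A318. The fatty acid oxidation median was 1.04 without A220, −0.185 without A216 and −1.18 without A248, A251 and A318. Inflammation (−0.293, but 0.406 without A216), interferon response (−0.453), glycolysis and hypoxia (0.372), circadian clock (0.294) and atrophy and proteolysis (0.346) lay somewhat further out. In the last list Gadd45a, a stress-induced gene, measured 9.16, 15.2, 16.9 and 9.88 CPM in PYY and 19.3, 22.9, 21.0, 17.2 and 31.5 CPM in the combination (0.81 ± 0.30), and Eif4ebp1, a repressor of cap-dependent translation, had a log2 fold change of 0.58 ± 0.22, both without overlap (background 0.517%). Cxcl12, the stromal chemokine that holds blood stem cells in the marrow, had a log2 fold change of −0.18 ± 0.45.

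The receptors of the drugs were scarce in femur. Glp1r, the semaglutide receptor (chr20:8972004-9010241), had 0 counts in all 9 libraries, which allows up to 0.0738 to 0.156 CPM depending on the library, counting error only. Npy2r had 7 counts in A216 and 0 elsewhere, and Npy5r had 0 in all 9. Npy1r, which binds full-length PYY, measured 17.6, 1.36, 17.1 and 4.52 CPM in PYY and 3.20, 1.44, 2.17, 10.1 and 4.05 CPM in the combination (−1.28 ± 0.59).

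Semaglutide was also given without PYY, and that comparison with MetOP saline uses 10 libraries that are not among these 9. It too called 0 genes, with 1690 autosomal genes at an unadjusted p under 0.05. Across autosomal genes the log2 fold changes of the 2 comparisons had a Pearson correlation of 0.229 and a Spearman correlation of 0.231, given as a description since genes are not independent. Of the 617 genes lower with semaglutide on PYY, 498 (80.7%) were also lower with semaglutide alone, where 52.2% of all autosomal genes were lower. Of the 305 higher, 206 (67.5%) were also higher, against 47.8% of all. Far fewer also had an unadjusted p under 0.05 without PYY in the same direction, 156 of the 617 and 17 of the 305. Over all 14695 autosomal genes, 1690 had such a p in either direction.

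Fibroblast, tendon, bone and skeletal muscle lists had medians of the same sign in both comparisons, while the neutrophil, megakaryocyte, erythroid and cell cycle lists did not. The marrow stroma, macrophage and plasma cell medians were below 0 in both. With PYY their signs changed in 1, 8 and 9 of the 21 alternatives, in that order. The osteoblast median was −1.56 with PYY and −1.98 without, the fibroblast median −1.66 and −0.754, and the skeletal muscle median 0.771 and 0.849. The erythroid median was 0.514 with PYY and −1.48 without, the megakaryocyte median 1.32 and −1.05, and the cell cycle median 0.420 and −1.49. The difference between the comparisons was tested gene by gene as an interaction, and 0 genes passed in edgeR (680 autosomal genes at an unadjusted p under 0.05; DESeq2 called 3 and limma voom 0). Its smallest adjusted p was 0.0973, for Cenpm, a centromere protein on chr7:113747516-113764258, which was among the 3 that DESeq2 called (adjusted p = 2.1e-06). Cenpm had 5, 15, 18 and 4 counts in PYY and 12, 9, 73, 63 and 54 counts in the combination, and averaged 2.12 CPM ± 3.14 (SD, n = 5) with saline and 0.00783 CPM ± 0.0175 (SD, n = 5) with semaglutide. Without A248, A251 and A318 the interaction called 34 genes, among them Mcm4 and Mcm7, subunits of the replicative helicase, but that leaves A253 and A320 alone in the combination group.

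**Figure D4:**
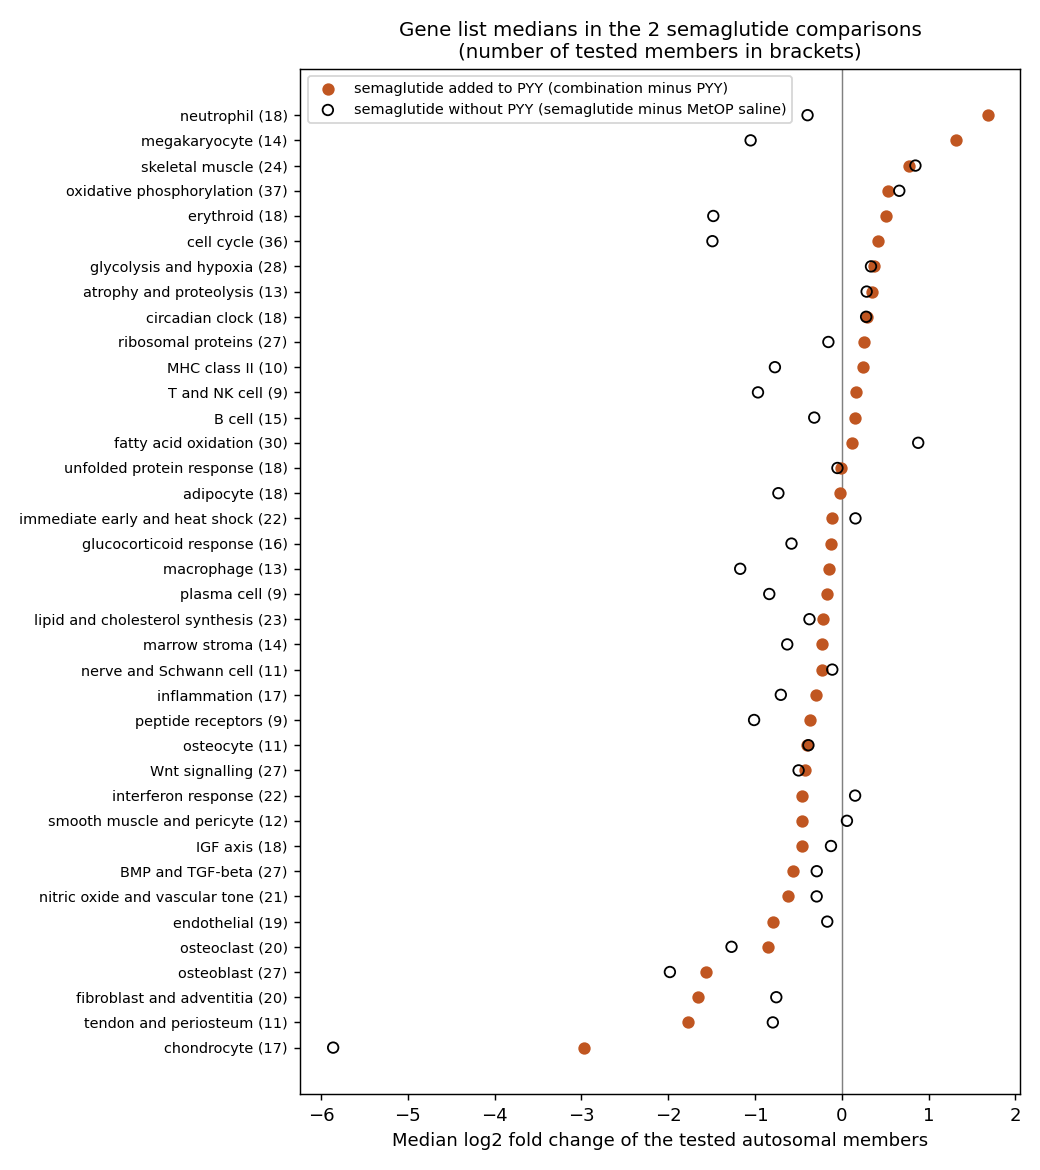
Median log2 fold change of the tested members of each of 38 gene lists for semaglutide added to PYY (filled) and for semaglutide without PYY (open). Erythroid, megakaryocyte and cell cycle medians are above 0 with PYY and below 0 without it.

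**Figure D5:**
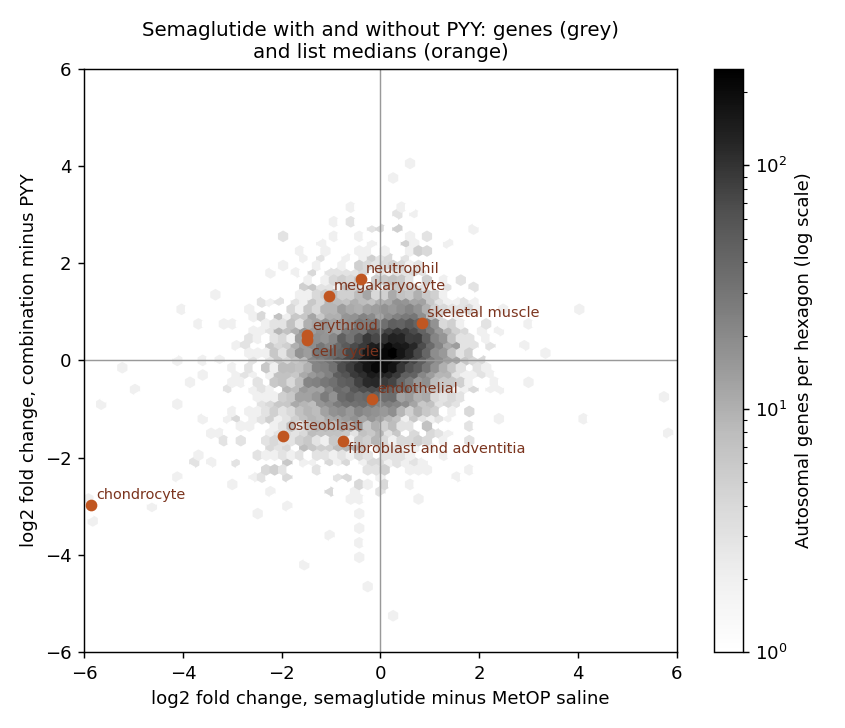
Log2 fold change of autosomal genes for semaglutide without PYY (x axis) and with PYY (y axis), as grey hexagons shaded by gene number, with 9 list medians in orange. Of 14695 genes 14591 fall inside the axes, and the cloud tilts upward weakly (Pearson correlation 0.229).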

How the data were processed

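PolyA RNA from rat femora was sequenced in 23 libraries of 5 groups, and the 5 combination and 4 PYY libraries are compared here. The authors deposited raw read counts per gene, which were used as deposited, and a table of FPKM values that was not used. Per the submitters' processing notes the build was mRatBN7.2 and DESeq2 version 1.42.0 was used, while the aligner, the counter and the strand setting were not stated there, so that reads of overlapping and antisense genes may not be told apart.

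Genes were filtered with filterByExpr, scaled by TMM and tested with edgeR 4.0.16 (quasi-likelihood, robust, R 4.3.3), with a mean for each of the 5 groups fitted to all 23 libraries, leaving 18 degrees of freedom for the spread. P-values were adjusted by Benjamini-Hochberg over all 15271 genes tested on every chromosome, with a threshold of 0.05, and only autosomal genes are counted and named. Totals of 19.25 to 40.65 M (mega) counts put the limit of a count of 0 at 3 counts, or 0.0738 to 0.156 CPM. List levels are means of log2 CPM with a prior count of 2. The fit was tested on simulated data.

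Genes named are the 10 of smallest p in each direction (placeholder symbols left out), the 4 of smallest p in each of 38 lists, a fixed set of bone, marrow, muscle and receptor genes, and the 5 most abundant. The rule gives 193 genes, of which the text prints 58. These 58 were picked from the 193 with their values known, and the alternatives and the search for libraries that stand apart were narrowed to them after both had been run over all 193, whose counts are given in the closing section. Some genes of the rule are not reported here. Genes outside the rule are said to be so where they appear. Promoters of Col15a1 and Fbn1 were also searched, held none of the motifs and are not shown. Of 782 list entries, 17 were not matched to the table and 3 were matched by an older symbol, which left 701 distinct autosomal genes tested. The comparison, the lists and the rule were chosen with earlier results of these data known.

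Alternatives were RLE scaling, no filter, leaving out mitochondrially encoded genes, fitting the 9 libraries alone, no robust dispersion, DESeq2, limma voom 3.58.1, a muscle or mitochondrial covariate, and leaving out each library. After the data were seen, 3 more were added that leave out A248 and A318, A248, A251 and A318, or A215 and A216. The first 2 follow the Y-linked counts and the last was chosen for the levels of its libraries, so it describes those libraries only.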

Additional observations from a re-analysis of the deposited data

Results flagged for a closer look

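Counts of 4 Y-linked genes were present in combination libraries labelled female, with 1623 in A248, 638 in A318, 87 in A251 and 24 in A320, against 0 in all PYY, saline and semaglutide libraries. Of the healthy control libraries, 1 had 45 and another 9, and 17 of the 23 libraries were at 0. Where these counts come from was not tested.

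A few libraries stood apart from their own group. The PYY library A216 had a skeletal muscle level of 6.40 (mean log2 CPM), where the nearest other PYY library had 9.29, and a circadian clock level of 2.29, where the nearest had 3.14. The combination library A320 had a T and NK cell level of 1.49, where the nearest had −1.92. These are 3 of 200 sets of 4 or 5 values examined, covering the list levels, the library makeup and the 58 printed genes, and chance alone flags about 1 in 20, or 10 sets. With all 193 genes of the naming rule the search had covered 470 sets, and 15 held such a library where chance gives 23.5.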

How the results depend on the processing

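The count of 0 called genes held in edgeR under RLE scaling, no filter, no mitochondrially encoded genes, the 9 libraries alone, no robust dispersion and both covariates. DESeq2 called 9 genes (and 3 for the interaction) and limma voom 1. Leaving out 1 library gave 0 to 2 called genes, 2.87% to 6.2% of tested genes lower and 0.894% to 6.07% higher at the unadjusted threshold, and 231 to 706 and 82 to 296 genes whose groups did not overlap in the lower and the higher direction. With the 9 libraries alone 2.83% were lower and 0.982% higher, and with the mitochondrial covariate 5.41% were lower and 3.16% higher. Lower genes made up 50.4% to 76.5% of those at the unadjusted threshold over all alternatives.

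Of the 58 printed genes, 42 kept their direction under all 21 alternatives run and 16 did not, in 37 of 1217 values. Over all 193 genes of the naming rule, 125 of 4042 values changed sign, spread over 59 genes of that wider set. Without A248 and A318, 408 genes lay wholly below and 246 wholly above PYY. Without A248, A251 and A318, which leaves 2 combination libraries, 5 genes and 34 interactions were called, 4.15% of genes were higher at the unadjusted threshold, 1277 lay wholly below and 1431 wholly above, and the log2 fold changes of Ckm (−0.721), Cox5a (−0.387), Cxcl12 (0.464) and Dmp1 (0.460) changed sign. Fewer libraries make groups that do not overlap more common by construction. Without A215 and A216, 1.6% of genes were lower and 0.491% higher, 504 lay wholly below and 174 wholly above, and signs changed for Mmp13 (0.427), Ibsp (0.289), Ctsk (0.0322), Spp1 (0.159), Acp5 (0.529), Alpl (0.446), Sp7 (0.372), Col2a1 (1.35), Runx2 (0.361), Bglap (0.925), Hba-a1 (−0.230) and Dmp1 (0.780). With the muscle covariate they changed for Ckm (−0.501), Sp7 (0.265), Col2a1 (2.41), Runx2 (0.275), Bglap (0.210), Cxcl12 (0.165) and Dmp1 (0.518), with the mitochondrial covariate for Hba-a1 (−0.377), and in the 9 libraries alone for Dmp1 (0.00233). Ckm is 1 of the genes that make up the muscle covariate, so its change under it was built in. The cause of the other changes was not tested.

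Leaving out each library in turn moved Col2a1 from −3.87 to 1.95, Cxcl12 from −0.509 to 0.0459, Dmp1 from −0.372 to 0.442, Hba-a1 from −0.151 to 1.03, Mki67 from −0.0637 to 1.08, Runx2 from −1.44 to 0.129 and Sp7 from −1.64 to 0.121. The difference in the mitochondrial share ran from −0.464 to 8.65 percentage points and that in the haemoglobin share from −0.715 to 2.08, or −0.0959 as a share of all counts. No paired analysis was possible because the groups share no replicate numbers.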

Other observations

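Some genes were at 0 in whole sets of libraries and had counts in others. Ocstamp, needed for the fusion of osteoclast precursors, had 20, 87, 0 and 27 counts in PYY and 0 in all 5 combination libraries, at least 45.8-fold lower against a floor of 3 counts over the group. The highest count was in A216, and without it the bound was 16.4-fold. Its level in A219 was also 0, so the groups overlapped. Ocstamp was scarce in the other groups as well, with means of 0.280 CPM ± 0.501 (SD) with saline, 0.198 ± 0.443 with semaglutide and 0.0445 ± 0.0890 in healthy controls.

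A further set was absent from A253 and A320 alone, and was seen only when A248, A251 and A318 were left out. Smim27 had 72, 44, 47 and 286 counts in PYY, 81, 162 and 88 in A248, A251 and A318, and 0 in both A253 and A320. Rcor2, a transcriptional corepressor, had 27, 94, 54 and 166 counts in PYY, 32, 98 and 21 in A248, A251 and A318, and 0 in the same pair. Dph2, an enzyme of diphthamide synthesis, had 63, 50, 38 and 90 counts in PYY, 26, 40 and 119 in those 3, and 0 in the pair. Cdnf and Lsmem1 had 2 counts or fewer in each of A253 and A320 and 15 or more in each of the other 7 libraries. These genes were chosen after their values were seen, and A253 and A320 are not a group of the study.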
